A study of Mus musculus with 6 samples.

Results

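The fibrillar collagens are the extracellular proteins that assemble into the banded fibrils of dentin, bone, skin and loose connective tissue. The 10 genes described here are Col1a1 and Col1a2 (type I), Col3a1 (type III), Col5a1, Col5a2 and Col5a3 (type V), Col11a1 and Col11a2 (type XI), Col24a1 (type XXIV) and Col27a1 (type XXVII). They were taken by gene symbol from the expression table, each symbol naming a single row, and make up 10 of its 53342 genes. Col2a1, the type II chain of cartilage, also belongs to the family but is not among the 10.

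Each fibrillar procollagen is built from 3 chains that wind into a long triple helix with glycine at the start of every triplet of residues. Type I is the main collagen of dentin and pulp, type III accompanies it in soft connective tissue, and types V and XI are minor partners that are built into the same fibrils and limit their thickness. Types XXIV and XXVII have shorter helices and are found at sites of skeletal formation. Once assembled, the helix resists most proteases, and collagenases such as MMP13 (collagenase-3) open it at a single peptide bond.

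RNA sequencing compared dental pulp of C57BL/6 mice aged 3 months that were either wild-type (WT, 3 samples, numbered 2, 4 and 5) or carried a global deletion of Mmp13 (Mmp13-/-, 3 samples, numbered 1, 2 and 6). The mice were male according to the study's methods, the deletion is present in every tissue, and no treatment was given to either genotype. The titles of the WT samples name molars, those of the Mmp13-/- samples name no tooth, and the methods name incisors. RNA extraction is given as a column kit or as TRIzol. The samples are called biological replicates, but nothing states that each came from a separate animal, so that p-values measure the spread between these samples.

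Library totals ranged from 28442936 to 29980236 counts in WT and from 21561420 to 26547121 in Mmp13-/-. Mmp13 stood at 36.9, 39.2 and 30.2 CPM (counts relative to library size, scaled by the TMM method of edgeR) in WT and at 0.317, 1.10 and 2.32 CPM in Mmp13-/-, in accord with the genotype labels. Mmp13-/- sample 6 stood apart from samples 1 and 2, since its 10 most abundant genes took 53.7% of its counts, against 22.6 to 27.2% in the other libraries. Counts over odorant and vomeronasal receptor genes, which pulp is not known to use, summed to 17.8 to 20.8 CPM in WT, to 308 and 355 CPM in Mmp13-/- samples 1 and 2 and to 1196 CPM in sample 6. GC content was taken from the transcript of each gene with the longest coding sequence. The log2 fold change between genotypes also ran with this GC content, with a Spearman rho of -0.57 across 16953 genes. For this reason each member's main value is followed by that from a GC-corrected fit, in which rho was -0.036. Whether the GC relation is technical or belongs to the genotype cannot be told apart in this design.

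The coding sequence at the collagenase bond is shown for the 3 most abundant members, because this is the site in the collagens themselves that MMP13 is known to cut. Each line runs 5′ to 3′ on the coding strand (GRCm38, GENCODE M21), with the codons of the glycine and of the isoleucine or leucine on either side of the bond in capitals.
Col1a1: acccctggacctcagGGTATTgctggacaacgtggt
Col1a2: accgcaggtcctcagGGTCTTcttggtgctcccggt
Col3a1: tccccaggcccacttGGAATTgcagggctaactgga
The Col1a1 stretch lies in coding exon 40 at chr11:94947895-94947930 (+). The Col1a2 stretch lies in exon 41 at chr6:4534593-4534628 (+). The Col3a1 stretch lies in exon 40 at chr1:45341141-45341176 (+). The glycine before the bond is residue 775 of the unbroken helix in Col1a1 and in Col1a2 and residue 784 in Col3a1, which places it at 76.4%, 76.2% and 76.0% of the helix length. The unbroken run of glycine triplets spans 1011 to 1032 codons in the 8 chains of types I, III, V and XI, 648 codons in Col24a1 and 651 codons in Col27a1.

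Glycine and proline, the commonest residues of the helix, have codons that begin with GG and CC. In all 10 members the helix was richer in G and C than the whole coding sequence, with 58.4 to 65.8% GC in the helix. Over the transcript with the longest coding sequence, GC content ran from 48.0% in Col11a1 and 49.6% in Col5a2 to 61.6% in Col5a3 and 64.1% in Col11a2. The members thus differ in GC content, with which the genotype difference ran. The GC correction made the log2 fold change of every member smaller in size, and their median moved from -1.41 to -0.80.

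Every fibrillar collagen was lower in Mmp13-/- pulp than in WT. All 10 had enough counts to be tested. In the quasi-likelihood test of edgeR, adjusted by Benjamini-Hochberg over 24534 genes, 8 of 10 members passed an adjusted p of 0.05 with a change over 2-fold, and 2375 of all genes (9.68%) did so in that direction (30.1% in either). At any fold all 10 members passed, against 24.3% of all genes. In each of the 10 every Mmp13-/- sample lay below every WT sample, as in 29.1% of all genes. The median log2 fold change of the members was -1.41 and that of all genes 0.10. With GC corrected, these medians were -0.80 and 0.19. The correction left 4 members lower by over 2-fold (3.62% of all genes), 6 lower at any fold (13.6%) and 7 with no overlap between genotypes (19.8%). In bulk tissue, fewer collagen-producing cells and less collagen mRNA per cell cannot be told apart.

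**Figure D1:**
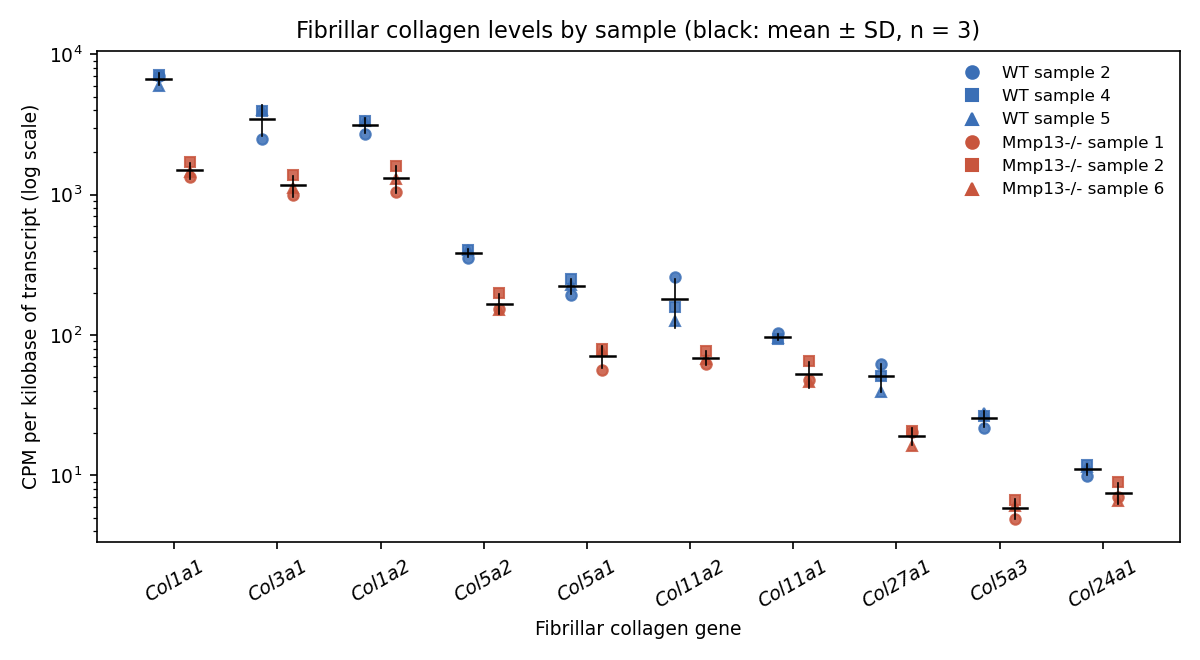
CPM per kilobase of transcript (log axis) for each fibrillar collagen in the 6 samples, with the mean ± SD of each genotype in black. All Mmp13-/- points lie below all WT points of the same gene, and the levels run from about 6714 (Col1a1) to 11.1 (Col24a1) in the WT means.

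Summed over the 10 genes, fibrillar collagens stood at 76965, 89069 and 82310 CPM in WT, compared with 21463, 29644 and 24273 in Mmp13-/-. The genotypes did not overlap, and the means of 82781 ± 6065 and 25126 ± 4157 CPM (SD, n = 3) differed 3.29-fold. As a share of all counts, without any scaling, the family took 8.02% ± 0.638 of a WT library and 2.62% ± 0.700 of a Mmp13-/- library. After the GC correction the sums were 63856 ± 2332 and 32268 ± 5314 CPM, a 1.98-fold difference. Without Col1a1 the uncorrected sums differed 2.65-fold.

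Per kilobase of transcript, types I and III made up 92.4 to 93.5% of the family in WT and 90.5 to 91.3% in Mmp13-/-. Col1a1 was the highest member in every sample. In WT it was followed by Col3a1 (3483 ± 855 CPM per kilobase) and Col1a2 (3140 ± 391), which did not differ beyond their spread, then Col5a2, Col5a1, Col11a2, Col11a1, Col27a1, Col5a3 and Col24a1. Col5a1 (224 ± 28.5) and Col11a2 (181 ± 68.2) also overlapped in their spread. In Mmp13-/- the 3 leading genes lay closer together, at 1499 ± 197 for Col1a1, 1314 ± 284 for Col1a2 and 1167 ± 196 for Col3a1. Col24a1 (7.54 ± 1.24) ranked above Col5a3 (5.83 ± 0.908) in the Mmp13-/- means, in the reverse of the WT order. This held within each Mmp13-/- sample (7.05, 8.96 and 6.62 against 4.85, 6.64 and 6.01), although values overlapped across samples. The 2 transcripts differ in GC content (51.0% and 61.6%), and this order is given without the GC correction.

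Col1a1 (ENSMUSG00000001506, chr11:94936224-94953042 in GRCm38, 51 exons in its longest coding transcript) encodes the major chain of type I collagen. It stood at 41842, 42196 and 35399 CPM in WT samples 2, 4 and 5 and at 7919, 10186 and 8564 CPM in Mmp13-/- samples 1, 2 and 6. The lowest WT value was 3.48 times the highest Mmp13-/- value, the widest gap among the members. The fitted difference was 4.48-fold, a log2 fold change of -2.16 (SE 0.34, edgeR adjusted p = 0.000668). With GC corrected it was -1.20 (adjusted p = 0.00802), and the samples still did not overlap. In WT libraries it ranked 3, 2 and 3 among all genes by count, and in Mmp13-/- libraries 7, 8 and 10.

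Col1a2 (ENSMUSG00000029661, chr6:4504814-4541544, 52 exons) encodes the partner chain of type I. Its values were 14382, 18022 and 17979 CPM in WT and 5576, 8608 and 6896 CPM in Mmp13-/-. The genotypes were apart, with a log2 fold change of -1.26 (SE 0.31, edgeR adjusted p = 0.00743), a smaller change than that of Col1a1. After the GC correction it was -0.52 and did not pass (edgeR adjusted p = 0.128), although the samples still did not overlap.

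Col3a1 (ENSMUSG00000026043, chr1:45311538-45349706, 51 exons) encodes the single chain of type III. It stood at 13893, 21868 and 22383 CPM in WT, where sample 2 was clearly below the other samples, and at 5539, 7680 and 6254 CPM in Mmp13-/-. Even the low WT sample was 1.81 times the highest Mmp13-/- sample. The log2 fold change was -1.58 (SE 0.33, edgeR adjusted p = 0.00325), and -1.14 (adjusted p = 0.0117) after the GC correction. Without WT sample 2 it was -1.85.

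The type V genes encode chains that regulate the start of fibril assembly. Col5a1 (ENSMUSG00000026837, chr2:27886425-28039514, 66 exons) stood at 1623, 2096 and 1926 CPM in WT, compared with 472, 672 and 642 in Mmp13-/-. Col5a2 (ENSMUSG00000026042, chr1:45374321-45503282, minus strand, 54 exons) stood at 2363, 2669 and 2661 CPM in WT, compared with 1022, 1317 and 995 in Mmp13-/-. Col5a3 (ENSMUSG00000004098, chr9:20770050-20815067, minus strand, 67 exons), the scarcest chain of the type, stood at 134, 163 and 172 CPM in WT, compared with 29.7, 40.6 and 36.8 in Mmp13-/-. All Mmp13-/- samples were below all WT samples for each chain, and Col5a3 showed the smallest adjusted p of the family. The log2 fold changes in edgeR were -1.66 for Col5a1 (SE 0.23, adjusted p = 0.000385), -1.21 for Col5a2 (SE 0.23, adjusted p = 0.00183) and -2.13 for Col5a3 (SE 0.18, adjusted p = 4.98e-05). All 3 passed after the GC correction too, at -0.75, -1.02 and -1.04. In Mmp13-/- sample 6 the background rate set by receptor genes would account for 5.15% of the Col5a3 counts and at most 0.368% of those of Col5a1 and Col5a2. Col3a1 and Col5a2 are neighbours on chromosome 1, on opposite strands.

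The type XI genes are best known from cartilage, where their chains join type II collagen, and they can also pair with type V chains. Col11a1 (ENSMUSG00000027966, chr3:114030540-114220718, 67 exons) stood at 792, 723 and 727 CPM in WT, compared with 365, 502 and 353 in Mmp13-/-. WT values were the closest of any member, with a coefficient of variation of 5.21%, and Mmp13-/- sample 2 was the highest of its genotype. The log2 fold change was -0.88 (SE 0.20, edgeR adjusted p = 0.00516), under 2-fold, and barely moved with the GC correction (-0.84, adjusted p = 0.00369). With total counts in place of TMM factors it was -0.75 and did not pass (edgeR adjusted p = 0.120).

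Col11a2 (ENSMUSG00000024330, chr17:34039437-34066685, 66 exons) stood at 1389, 859 and 682 CPM in WT, compared with 335, 416 and 362 in Mmp13-/-. Its WT samples varied most in the family, with a coefficient of variation of 37.7%, and sample 2 was the highest. The log2 fold change was -1.40 (SE 0.27, edgeR adjusted p = 0.00220). After the GC correction the genotypes overlapped and the change was -0.39 (adjusted p = 0.300).

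Col2a1, chosen after its values were seen, stood at 61.1, 80.3 and 80.8 CPM in WT, compared with 28.3, 36.1 and 26.2 in Mmp13-/-. Its log2 fold change was -1.29 (SE 0.18, edgeR adjusted p = 0.000328), and -0.21 (adjusted p = 0.236) after the GC correction. Cartilage markers, with Col2a1 among them, summed to 114 to 128 CPM in WT and to 68.2 to 83.8 CPM in Mmp13-/-, but without Col2a1 the sums overlapped, at 37.1 to 53.1 CPM and 41.5 to 47.7 CPM. Of 7 cartilage markers tested, Col2a1 and Col10a1 were lower and Hapln1, Matn3 and Cnmd higher, each by over 2-fold. Over all genes 9.68% were lower and 20.4% higher by over 2-fold. After the GC correction 1 marker was lower and 2 were higher at any fold (13.6% and 23% of all genes). In WT, Matn3 (0.0688 to 0.292 CPM) and Cnmd (0.219 to 0.898 CPM) lay near the floor, and Matn1 was at or under 3 counts in every sample.

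Col24a1 (ENSMUSG00000028197, chr3:145292472-145552011, 60 exons) was the least abundant member in WT and had the smallest log2 fold change of the family. It stood at 71.3, 84.95 and 81.4 CPM in WT, compared with 50.4, 64.0 and 47.3 in Mmp13-/-, and its lowest WT sample was only 1.11 times the highest Mmp13-/- sample. The log2 fold change was -0.55 (95% interval -0.91 to -0.20, edgeR adjusted p = 0.0149). It did not pass with total counts (-0.43, adjusted p = 0.319), after the GC correction (-0.24, adjusted p = 0.140) or without WT sample 4 (-0.54, adjusted p = 0.0503). The receptor background would account for 4.48% of its counts in Mmp13-/- sample 6, and after subtraction the change was -0.42 (adjusted p = 0.0273).

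Col27a1 (ENSMUSG00000045672, chr4:63214004-63334991, 61 exons) stood at 475, 388 and 301 CPM in WT, compared with 154, 159 and 123 in Mmp13-/-. The Mmp13-/- samples were close together and below all WT samples, of which sample 2 was again the highest. The log2 fold change was -1.42 (SE 0.21, edgeR adjusted p = 0.000513), but -0.43 (adjusted p = 0.103) with overlapping samples after the GC correction.

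**Figure D2:**
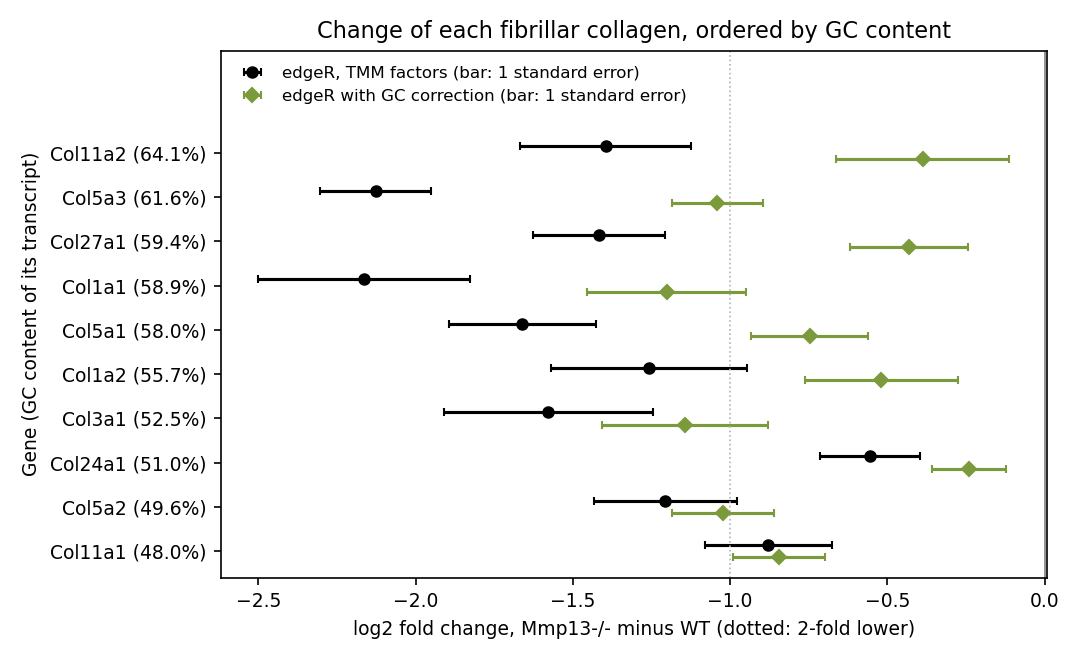
Log2 fold change (Mmp13-/- minus WT) of each fibrillar collagen, with bars of 1 standard error, in edgeR with TMM factors (black) and with the GC correction (green). Genes are ordered by the GC content of the transcript with the longest coding sequence. All 20 estimates are below 0, and the distance between black and green is smallest for Col11a1 (48.0% GC) and largest for Col5a3 (61.6% GC) and Col11a2 (64.1% GC).

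Across the 10 members the log2 fold change fell with GC content, with a Spearman rho of -0.65, and after the correction rho was 0.091. These are descriptions over 10 genes that share the same 6 libraries. Col1a1, Col3a1, Col5a2 and Col5a3 were lower by over 2-fold either way. Leaving out Mmp13-/- sample 6, which stood apart, kept the counts at 8 members lower by over 2-fold and 10 at any fold, with a median log2 fold change of -1.34.

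Chains that share a trimer or a fibril were then set against each other as ratios of CPM per kilobase within each sample, which a scaling of the whole library cannot change. With 3 samples against 3, an exact two-sided permutation test cannot give a p under 0.1, and after adjustment over the 7 ratios that smallest value becomes 0.117. The ratios are therefore read by whether the genotypes overlap. In 6 of the 7 they did not. How often ratios of other gene pairs stay apart was not measured, so this count has no background beside it. Among single genes, 29.1% lay wholly lower and 31.9% wholly higher in Mmp13-/-. After the GC correction only Col1a1/Col1a2, Col5a3/Col5a1 and, in the opposite direction, Col5a1/Col5a2 stayed apart.

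The ratio of Col1a1 to Col1a2, chains of the same type I trimer, was 2.62, 2.11 and 1.78 in WT against 1.28, 1.07 and 1.12 in Mmp13-/-. The means were 2.17 ± 0.427 and 1.16 ± 0.111, with no overlap (exact permutation p = 0.1). After the GC correction the ratio was 2.43, 1.92 and 1.66 in WT against 1.41, 1.17 and 1.18 in Mmp13-/-, again without overlap. WT sample 2 gave the highest ratio on either scale.

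The ratio of Col5a3 to Col5a1 also kept its order. It was 0.113, 0.107 and 0.122 in WT against 0.0864, 0.0830 and 0.0787 in Mmp13-/-, a log2 difference of -0.46 that was -0.28 after the GC correction, with no overlap in either case. Col5a3 lay lower relative to its partner chain in every Mmp13-/- sample than in any WT sample.

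Other ratios depended on the GC correction. Col3a1 to Col1a1 was 0.354, 0.552 and 0.674 in WT against 0.746, 0.804 and 0.778 in Mmp13-/-, but the genotypes overlapped once corrected. Col27a1 to Col24a1 was 6.25, 4.28 and 3.47 in WT against 2.87, 2.33 and 2.44 in Mmp13-/-, and overlapped once corrected. The transcripts of these pairs differ in GC content, at 52.5% for Col3a1 and 58.9% for Col1a1, and at 59.4% for Col27a1 and 51.0% for Col24a1.

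For the minor chains the direction itself turned. Col5a1 to Col5a2 was 0.541, 0.619 and 0.571 in WT against 0.364, 0.402 and 0.509 in Mmp13-/-, a log2 difference of -0.45 that became 0.26 after the GC correction. Col11a1 to Col5a1 was 0.535, 0.378 and 0.414 in WT against 0.848, 0.818 and 0.603 in Mmp13-/-, a difference of 0.77 that became -0.087. Col11a2 to Col11a1 overlapped between genotypes (WT 2.49, 1.69 and 1.33, Mmp13-/- 1.30, 1.18 and 1.46, exact permutation p = 0.2), and its difference of -0.44 became 0.55. No direction is given for these 3 ratios.

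**Figure D3:**
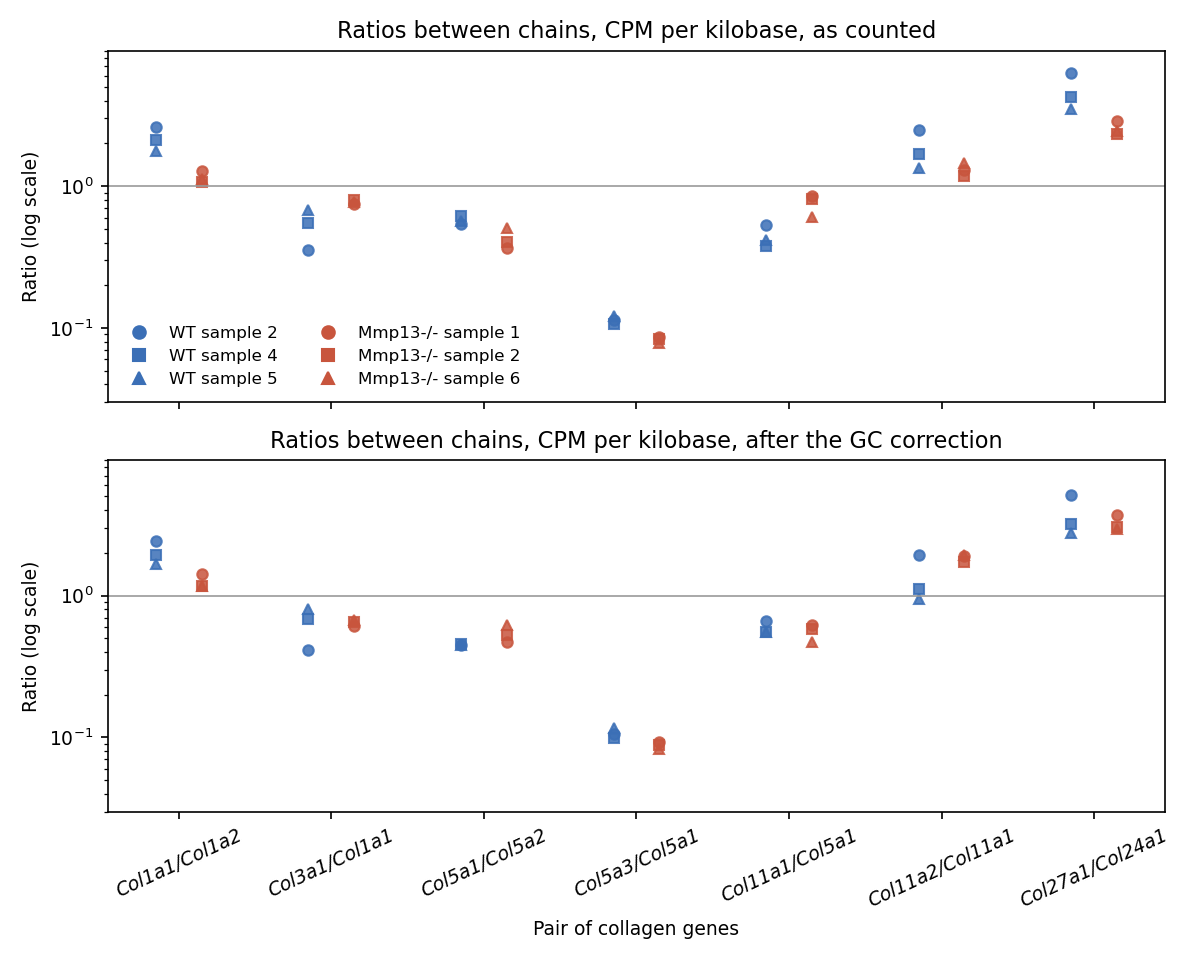
Ratio between pairs of fibrillar collagens in each sample, in CPM per kilobase on a log axis, as counted (top) and after the GC correction (bottom). WT and Mmp13-/- points stay apart in the same order in both panels for Col1a1/Col1a2 and Col5a3/Col5a1.

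Genes that modify, process, crosslink, bind or degrade fibrillar collagen were examined as 6 lists with 64 genes, of which 63 were in the table and 61 had enough counts to be tested. In the edgeR fit 29 were lower and 10 higher at any fold, and 12 were lower and 9 higher by over 2-fold. The background over all genes was 24.3% lower and 27.3% higher at any fold, and 9.68% lower and 20.4% higher by over 2-fold. The median log2 fold change over the 61 genes was -0.47. After the GC correction 12 were lower and 13 higher at any fold (13.6% and 23% of all genes), with a median of 0.13.

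Procollagen is hydroxylated, folded and exported from the endoplasmic reticulum with the help of dedicated enzymes and chaperones. Of 22 such genes 14 were lower and 2 higher at any fold, with a median of -0.54. These counts were 5 and 4 after the GC correction, with a median of 0.01, and 5 and 2 with total counts. Creb3l1, a transcription factor that drives type I collagen genes in osteoblasts, stood at 54.9, 53.9 and 49.1 CPM in WT, compared with 11.2, 12.7 and 14.7 in Mmp13-/-. Its log2 fold change was -2.04 (SE 0.15, edgeR adjusted p = 3.41e-05), and it stayed lower by over 2-fold after the GC correction (-1.03, adjusted p = 0.00155). The collagen hydroxylation partners P3h3 (-1.26) and P3h4 (-0.99) fell in the main fit, at edgeR adjusted p = 0.000207 and 0.000276, and stood at -0.19 and -0.05 after the correction, where neither passed.

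Propeptides are cut off outside the cell by the BMP1 and ADAMTS proteases. In this list 4 of 8 genes were lower and none higher at any fold, at a median of -0.44. After the GC correction 2 were lower and none higher, at a median of 0.17. Over all genes 24.3% were lower at any fold, and 13.6% after the correction. Bmp1, the C-propeptide protease, fell from 365 ± 29.5 to 149 ± 16.5 CPM, a log2 fold change of -1.30 (edgeR adjusted p = 0.000271), and by 0.40 (adjusted p = 0.0292) after the correction. Adamts14 (-0.72) and Pcolce (-0.59), an enhancer of BMP1, passed in the main fit, at edgeR adjusted p = 0.00414 and 0.00922, but not with total counts or after the correction, which turned their signs (0.32 and 0.33). Lysyl oxidases, which crosslink the fibril, gave 2 lower of 5, with a median of -0.34 (none lower and a median of 0.16 after the correction). These were Loxl1 (-1.21) and Loxl4 (-0.80), neither of which passed after the correction (-0.13 and 0.17). The next gene by adjusted p, Loxl3, did not pass (-0.34, edgeR adjusted p = 0.148). Neither did the more abundant Lox (0.20, edgeR adjusted p = 0.458) and Loxl2 (-0.13, adjusted p = 0.674). Summed lysyl oxidases overlapped between genotypes, at 478 to 564 CPM in WT and 426 to 550 CPM in Mmp13-/-.

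Among fibril-associated collagens, which coat fibrils and link them to other matrix, 2 of 9 genes tested were lower and none higher, with a median of -0.70 (0.19 after the correction). Beside this count, 24.3% of all genes were lower and 27.3% higher, so that it does not set the list apart. Col21a1, the tenth gene of this list, was not analysed here. Col16a1 fell from 1113 ± 179 to 300.4 ± 66.0 CPM, a log2 fold change of -1.89 (edgeR adjusted p = 0.000222), and Col22a1 fell from 102 ± 16.2 to 47.9 ± 13.1 CPM (-1.10, adjusted p = 0.00224). Both also passed after the correction, at -0.80 and -0.68. Col9a1 did not pass in the main fit (-0.92, edgeR adjusted p = 0.0635) but did without Mmp13-/- sample 6 (-1.20, adjusted p = 0.0345) and under 4 other alternatives.

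Fibril-binding proteoglycans and glycoproteins formed the only list of the 6 with a median above 0 in the main fit (0.53), with 6 of 11 genes higher and 4 lower. In the GC-corrected fit, where all 6 medians were above 0, its median was 0.61, with 5 genes higher and 1 lower. Ogn (osteoglycin) stood at 10.7, 11.1 and 9.96 CPM in WT, compared with 115, 156 and 102 in Mmp13-/-. Lum (lumican), which binds fibrils and regulates their spacing, stood at 52.4, 47.5 and 48.2 CPM in WT, compared with 378, 484 and 317 in Mmp13-/-. Postn (periostin), a matrix protein of the periodontal ligament and periosteum, stood at 475, 556 and 591 CPM in WT, compared with 2962, 4283 and 3371 in Mmp13-/-. Every Mmp13-/- sample was above every WT sample for these genes, as in 31.9% of all genes, and opposite to the fibrillar collagens. The log2 fold changes were 3.55, 2.99 and 2.71, with edgeR adjusted p = 4.69e-06, 2.08e-05 and 7.86e-05, and 1.75, 2.36 and 2.50 after the correction.

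Of the genes for collagen degradation and uptake, 3 of 6 tested were lower and 2 higher, with a median of -0.67 (0.15 after the correction). Mmp13, the deleted gene, gave a log2 fold change of -4.96 (SE 0.46, edgeR adjusted p = 7.67e-05). Mmp8, the neutrophil collagenase, rose from 3.45 ± 0.646 to 26.0 ± 3.98 CPM (2.92, adjusted p = 2.08e-05). Ctsk (cathepsin K), the acid collagenase of osteoclasts, rose from 40.6 ± 3.27 to 210 ± 72.2 CPM (2.37, adjusted p = 9.90e-05). Both were higher after the correction too, at 2.43 and 2.48. Mmp1a and Mmp1b, the rodent counterparts of collagenase-1, had too few counts to be tested.

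**Figure D4:**
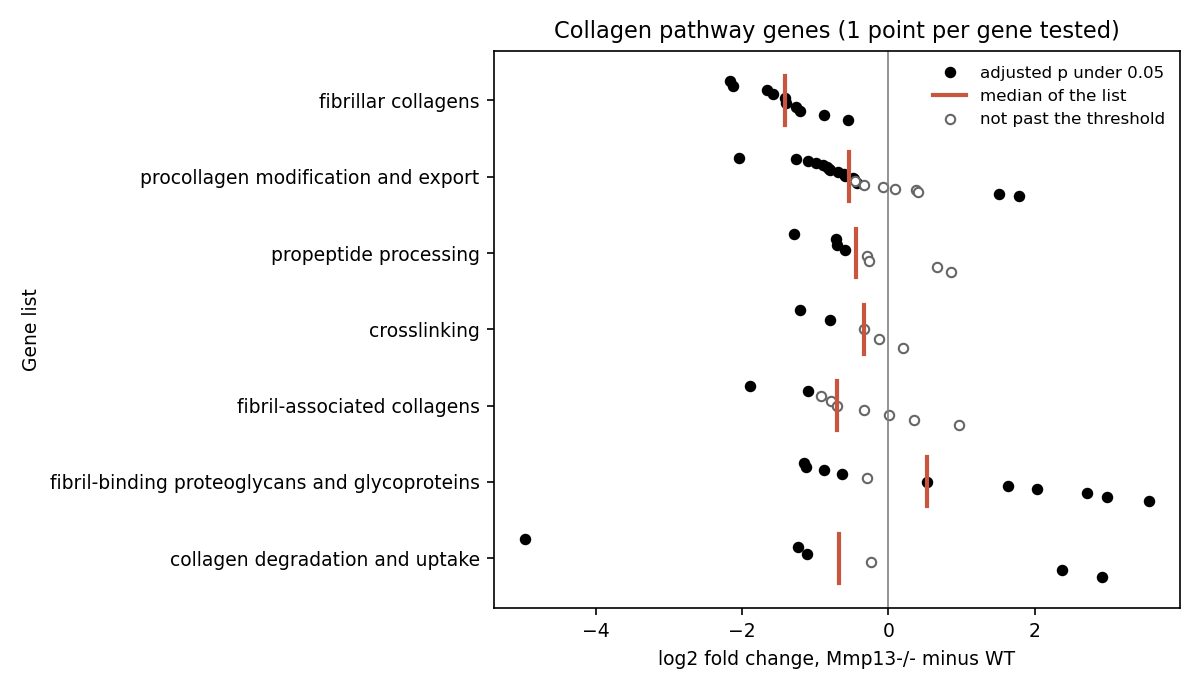
Log2 fold change (Mmp13-/- minus WT, edgeR with TMM factors) of each tested gene in the fibrillar collagens and in the 6 lists, with the median of each list in red and genes past an adjusted p of 0.05 filled. The fibrillar collagens lie wholly to the left of 0 with a median of -1.41, and fibril-binding genes spread to both sides with a median of 0.53.

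Markers of other cell types differed between genotypes as well. Of 24534 genes tested, 9.68% were lower and 20.4% higher by over 2-fold. After the GC correction 887 of them were lower and 3830 higher by over 2-fold. Apart from Matn1 in WT, none was at or under 3 counts in all samples of a genotype. Skeletal muscle markers, among them Acta1 and Ckm, summed to 46251 to 54522 CPM in WT and to 9041 to 20868 CPM in Mmp13-/-, and 9 of 10 were lower by over 2-fold (5 after the GC correction). Neutrophil markers summed to 150 to 315 CPM in WT and to 752 to 1824 CPM in Mmp13-/-, with 9 of 10 higher by over 2-fold (10 after the correction). Erythroid markers went from 900.0 to 1465 CPM in WT to 2121 to 3982 CPM in Mmp13-/-, with 5 of 9 higher by over 2-fold (9 after the correction), and B cell markers went from 45.6 to 50.1 CPM to 69.8 to 94.6 CPM, with 7 of 8 higher by over 2-fold (7 after the correction). Ahsp, an erythroid marker, was not analysed here. The part of muscle or blood cell RNA in the collagen differences was not tested. After subtraction of the receptor background all 10 members passed as lower (24% of all genes), 8 of them by over 2-fold (8.44% of all genes).

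Among cells that make fibrillar collagen, the summed markers of odontoblasts and osteoblasts overlapped between genotypes, and those of fibroblasts did not. For the counts below, 24.3% of all genes were lower and 27.3% higher at any fold (13.6% and 23% after the GC correction). Odontoblast markers summed to 1359 to 2577 CPM in WT and to 2287 to 3408 CPM in Mmp13-/-. Dspp, the odontoblast gene for the dentin sialophosphoprotein, was present in all samples, at 1646, 524 and 725 CPM in WT and 2341, 2422 and 1571 CPM in Mmp13-/-, and it makes up most of the odontoblast sum in Mmp13-/-. Of the 10 odontoblast markers 4 were higher and 2, Nes (-1.21) and Sp7 (-0.75), lower at any fold, while with GC corrected 3 were higher and none lower. Osteoblast markers summed to 1400 to 1875 CPM in WT and to 1572 to 2319 CPM in Mmp13-/-. Their members differed, since Spp1, Mepe and Ibsp were higher by over 2-fold and Sp7 and Alpl lower at any fold, and after the GC correction 5 of 8 were higher and none lower. Fibroblast markers summed to 838 to 987 CPM in WT and to 639 to 829 CPM in Mmp13-/-, with 4 of 8 lower and 1 higher at any fold, against none lower and 1 higher after the GC correction. The sums of epithelial and enamel organ (4774 to 6089 and 4652 to 6028 CPM), endothelial (297 to 349 and 234 to 326 CPM) and Schwann cell markers (83.1 to 283 and 89.9 to 110 CPM) overlapped between genotypes. Single markers moved, since at any fold 2 of 10 epithelial markers (Krt5 and Krt14) were lower and 1 (Krt18) higher. Of 6 endothelial markers 2 were lower and 1 higher, and of 6 Schwann cell markers 1 was lower. After the GC correction the counts lower and higher were 0 and 4, 1 and 3, and 0 and 1.

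**Figure D5:**
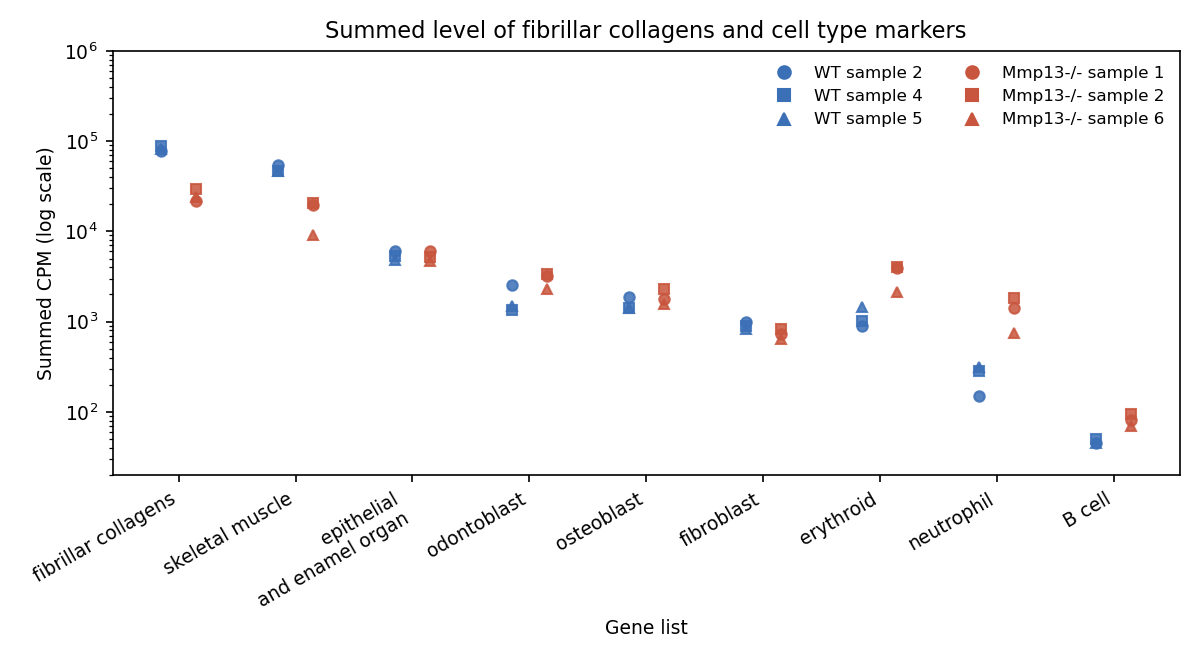
Summed CPM (log axis) of the fibrillar collagens and of 8 lists of cell type markers in each sample. Fibrillar collagen, skeletal muscle and, by a narrow gap, fibroblast sums are lower in all Mmp13-/- samples than in WT. Erythroid, neutrophil and B cell sums are higher, and odontoblast, osteoblast and epithelial sums overlap.

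Finally, the genes whose profile over the 6 samples was nearest to that of each major chain were listed, by the root mean square difference of log2 CPM centred on the WT mean, among 10137 genes with a mean of at least 10 CPM. For Col1a1 they were Rgma (0.142), Prr12 (0.145), Tnrc18 (0.146), Nfic (0.147) and Dact3 (0.153). For Col1a2 they were Shf (0.0919), Miat (0.101), Mmp14 (0.111), Igfbp7 (0.115) and Ccdc157 (0.117), with Col5a2 (0.122) next and the only member so close. For Col3a1 they were Flt3l (0.119), Ngef (0.124), Inf2 (0.126), Arsi (0.129) and Map1a (0.141). No gene stood on more than 1 of these lists. The distance includes the size of the change, in which these chains differ, so shared genes were unlikely from the start. Nothing is read from the lack of overlap.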

How the data were processed

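A single table held, for 6 samples, estimated counts per gene that the authors made from aligned reads in Strand NGS, and normalized log2 values that the authors derived from them. GEO's processing notes list mm10 and DESeq, while the annotation release and strand setting are not given in the sources used here. Estimated counts were rounded and tested by genotype, without covariates, with edgeR 4.0.16 in R 4.3.3 (quasi-likelihood, TMM factors, filterByExpr). All members were far above 3 counts, the floor of detection, which equals 0.0952 to 0.174 CPM. Lengths, positions and GC content came from GENCODE M21 (99.8% of genes matched). The GC correction used loess offsets (span 0.4). Background was measured over 1451 odorant and vomeronasal receptor genes. Pairs of WT samples differed by a chi-square of 27.0 to 51.7 per degree of freedom, far above counting error. Mmp13-/- samples 1 and 2 differed by 48.8, but sample 6 differed from them by 518 and 401. WT samples differed from Mmp13-/- samples 1 and 2 by 337 to 464, and from sample 6 by 978 to 1041. Sample 6 thus lay as far from its own genotype as samples 1 and 2 lay from WT, and farther still from WT. Ratios used the longest coding transcript. Members and lists were chosen with earlier results of these data known. Named were all members, Mmp13, up to 3 genes per list with the smallest adjusted p, and the 5 nearest profiles. Col2a1, Dspp, Lox, Loxl2 and a few other markers were added after their values were seen. Fits were tested on simulated data. Alternatives also used DESeq2 1.42.0 and limma 3.58.1.

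Some genes lie over members in the annotation (for example 9530034A14Rik antisense to Col24a1 and 2810430I11Rik opposite Col5a1), and without strand their reads cannot be told apart.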

Additional observations from a re-analysis of the deposited data

How the results depend on the processing

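All 10 fibrillar collagens stayed lower in Mmp13-/- in the main fit and its 15 alternatives, and Col1a1, Col3a1, Col5a1, Col5a2 and Col5a3 passed an adjusted p of 0.05 in each of the 16 fits. Under the GC correction 4 members were lower by over 2-fold (8 in the main fit), 6 passed at any fold (10), 3 other pathway genes were lower by over 2-fold (12) and 4717 of all genes were called over 2-fold (7381). The log2 difference of the Col5a1/Col5a2 ratio became 0.26, that of Col11a1/Col5a1 -0.087 and that of Col11a2/Col11a1 0.55, and the log2 fold changes of Adamts14, Pcolce, Loxl3 and Loxl4 turned to 0.32, 0.33, 0.16 and 0.17. The cause was not tested. Upper-quartile factors gave 6 other pathway genes lower by over 2-fold. The number of genes called was 4666 with at least 10 counts required in every sample and 14325 with no filter, which change the genes tested. The share of called genes that were higher was 67.8%, against 81.4% with upper-quartile factors, 77.2% with total counts and 81.2% with the GC correction, and the all-gene median of the log2 fold change moved from 0.10 to 0.32, 0.21 and 0.19. Member medians then were -1.20, -1.28 and -0.80. Leaving out each sample in turn gave 8 to 9 members lower by over 2-fold, 9 to 10 at any fold, 11 to 16 other pathway genes and 7146 to 8751 genes in all. The choice of length (transcript, coding or all exons) cannot change the log2 differences of the ratios, because a gene's length is the same in every sample. The ranking of members by level was the same with the coding length. Ratios under the GC correction, the sum without Col1a1, the cartilage sum without Col2a1 and the ranking by coding length were chosen after seeing the data. No paired analysis was possible because the genotypes share only replicate number 2. With 3 samples a genotype, the ratios could not reach an adjusted p of 0.05.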
